A study of Mus musculus with 6 samples.

Results

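Siglec receptors are surface proteins that bind sialic acid, the sugar that caps many glycans of blood cells, and most of them carry inhibitory tyrosine motifs that recruit phosphatases and dampen activation of the cell. The mouse genes described here are Siglec1, Siglece, Siglecf, Siglecg, Siglech, Cd22 and Cd33. Siglec1 and Cd22 are conserved between mammals, and the others belong to the fast-evolving group related to Cd33. Each is known from particular leukocytes, from macrophages and B cells to neutrophils, eosinophils and plasmacytoid dendritic cells, so that their transcripts also mark which blood cells a marrow holds. The 7 genes were taken by symbol from 19938 genes measured on the arrays, and each was measured by 1 probe set that names no other gene.

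Marrow was compared from 3 HoxA9AA/Meis1 mice and 3 HoxA9wt/Meis1 mice at disease onset, with 1 Affymetrix mouse gene array per mouse. All recipients were CD45.1+ and lethally irradiated, and all received CD45.2+ LSK cells, the stem and progenitor fraction of marrow, transduced with the homeobox gene Meis1. The donor cells also carried HoxA9AA-GFP, the altered form of the homeobox protein HoxA9, in the first group, and HoxA9wt-GFP, the wild-type form, in the second. The RNA came from whole bone marrow cells, which may include cells of the host, and no age of the mice is given in the labels. In such bulk RNA, fewer cells of a type and less RNA per cell cannot be told apart.

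Values are log2, so that 1 unit stands for a 2-fold change, and differences are HoxA9AA/Meis1 minus HoxA9wt/Meis1. HoxA9AA replicate 2 resembled the HoxA9wt arrays as closely as these resembled each other, with Pearson's r over all genes (not independent units) of 0.989 to 0.991 and 0.987 to 0.990. Replicates 1 and 3 of HoxA9AA stood farther from the HoxA9wt arrays, at 0.958 to 0.966 and 0.968 to 0.970. Background was read from 1015 olfactory receptor genes, whose means had a 95th percentile of 6.57. All 10 markers of myeloid precursors and all 12 of neutrophils lay above that level, as did 10 of 12 macrophage markers.

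For 6 of the 7 genes RefSeq gives a promoter window on build GRCm38.p6, and Siglec1 was not matched. The windows of the 4 genes whose means differed most are shown because Meis1 was introduced in every donor graft and its family binds the letters TGACAG. Each line holds the 250 bases before a RefSeq transcript start, written 5′ to 3′ along the gene, and capitals mark TGACAG on either strand. The starts used for Siglece and Cd33 lie inside the annotated genes (chr7:43648882-43672044 and chr7:43527399-43537424), as does that for Cd22. The bases before the outer 5′ ends of these genes were not searched. The starts used for Siglecg and Siglech also lie inside the annotated genes, but near the 5′ end, so their windows reach beyond it. For Siglecg the first of 2 overlapping windows is shown. The first pair, Siglece and Cd33, had lower means in HoxA9AA/Meis1, and the second pair, Siglecf and Siglecg, higher ones.
Siglece, chr7:43660162-43660411, minus strand: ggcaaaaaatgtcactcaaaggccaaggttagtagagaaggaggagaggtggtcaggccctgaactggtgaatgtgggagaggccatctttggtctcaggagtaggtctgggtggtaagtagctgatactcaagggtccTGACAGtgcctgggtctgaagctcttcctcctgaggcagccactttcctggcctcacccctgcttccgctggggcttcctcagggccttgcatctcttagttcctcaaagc
Cd33, chr7:43533172-43533421, minus strand: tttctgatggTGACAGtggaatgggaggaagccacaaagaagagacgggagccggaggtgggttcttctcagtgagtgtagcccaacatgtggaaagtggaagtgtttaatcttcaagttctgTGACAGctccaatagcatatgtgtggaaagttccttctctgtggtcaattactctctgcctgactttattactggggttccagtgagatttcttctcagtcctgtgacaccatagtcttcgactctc
Siglecf, chr7:43351091-43351340, plus strand: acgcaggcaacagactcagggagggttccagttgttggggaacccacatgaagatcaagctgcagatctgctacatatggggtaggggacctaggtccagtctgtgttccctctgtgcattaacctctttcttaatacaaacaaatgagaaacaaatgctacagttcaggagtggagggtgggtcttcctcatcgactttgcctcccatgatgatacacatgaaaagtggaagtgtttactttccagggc
Siglecg, chr7:43407989-43408238, plus strand: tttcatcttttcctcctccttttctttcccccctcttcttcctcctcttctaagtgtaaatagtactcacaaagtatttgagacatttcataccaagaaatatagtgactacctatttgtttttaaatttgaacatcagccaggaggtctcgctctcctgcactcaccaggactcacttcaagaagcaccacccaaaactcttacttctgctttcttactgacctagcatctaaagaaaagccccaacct
TGACAG stood 1 time in the Siglece window, 111 to 106 bases before the start, and 2 times in that of Cd33, at 240 to 235 and 127 to 122 bases. The Siglecf, Siglecg and Cd22 windows held none, and that of Siglech held 1. Of 32851 promoter windows of this length, 15.9% held TGACAG at least 1 time and 1.64% at least 2 times. GAGGAA is a core bound by ETS factors such as PU.1. It stood 3 times in the Siglece window, 2 times in that of Siglecg and 1 time each in those of Cd33 and Siglecf. All but the Cd33 copy lay on the opposite strand and read TTCCTC in the lines above. Of all windows, 23.3% held at least 1 copy. TTTAT, a core of posterior HOX sites, stood 1 time in the Cd33 window and in none of the other 3, against 37.3% of all windows. TGTGGT, bound by RUNX factors, stood 1 time in the Cd33 window and in none of the other 3, against 14% of all windows, and TTGCNNAA, a C/EBP site, in none of the 4, against 9.6%. These motifs do not overlap one another in the windows shown. The second Siglecg window, not shown, held none of them, so both GAGGAA copies stood only in the first. A match is only a match of letters, and binding was not measured.

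The comparison of the groups asked which Siglec transcripts differ with the form of HoxA9 in the graft. Means of the myeloid receptor genes Siglece and Cd33 were lower in HoxA9AA/Meis1 marrow, by 0.93 and 0.55 on the log2 scale, and means of Siglecf and Siglecg were higher by 0.67 and 0.60. Siglec1, Siglech and Cd22 had differences between -0.10 and 0.18. None of the 7 passed the test across all genes (limma, adjusted p under 0.05), which called 0 of 19938 genes, or 0%, with 1344 genes at an unadjusted p under 0.05. The values of the 2 groups did not overlap for 3 of the 7, Siglecg, Cd33 and Siglece, where 11.4% of all genes had such groups (6.6% with HoxA9AA/Meis1 higher, as Siglecg, and 4.8% with it lower, as Cd33 and Siglece). Means were higher in HoxA9AA/Meis1 for 3 of the 7 and lower for 4, against 52.7% and 46.4% of all genes. An unadjusted p under 0.05 was reached by 2 of the 7, Siglecg and Cd33, against 6.74% of all genes. Without HoxA9AA replicate 2, the HoxA9AA array most like HoxA9wt, it was reached by 4 of the 7, against 14.1% of all genes. Siglece and Siglecf were then added. Without any other single array it was reached by 2 or 3 of the 7, against 3.05% to 6.56% of all genes. The median difference of the 7 was -0.06, against 0.01 over all genes tested, since members lay on both sides of 0.

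**Figure D1:**
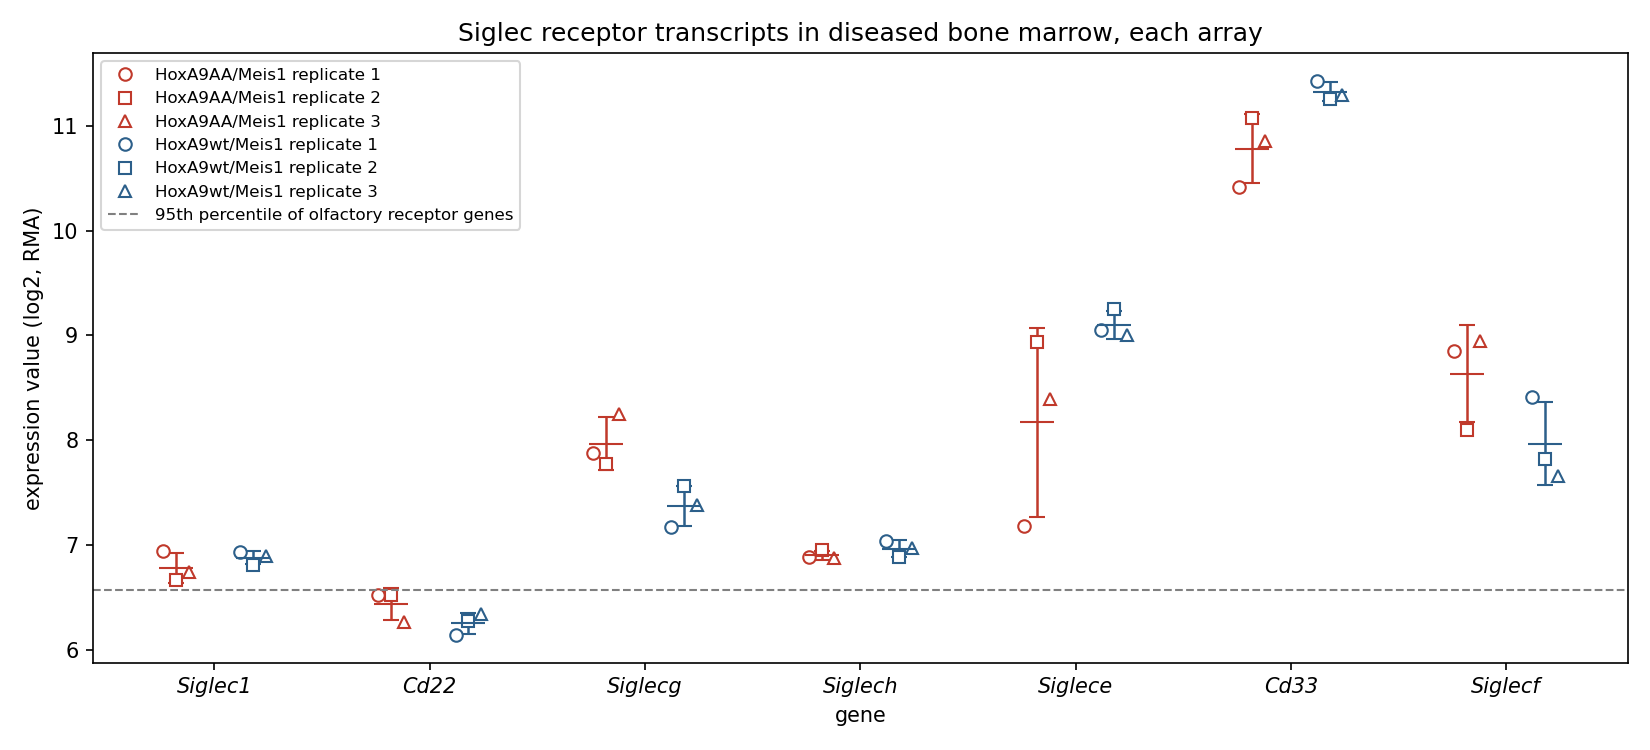
Expression value (log2, vertical axis) of the 7 Siglec receptor genes on each array; open symbols are single mice, horizontal bars with whiskers are the group mean ± SD (n = 3), and the dashed line is the 95th percentile of the means of olfactory receptor genes (6.57). The groups stand apart for Siglecg, Siglece and Cd33, HoxA9AA replicate 1 lies lowest for Siglece at 7.18, and Cd22 lies below the dashed line; levels of different genes come from different probes and are not comparable.

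Siglece encodes an inhibitory receptor of neutrophils, monocytes and macrophages that recruits the phosphatases encoded by Ptpn6 and Ptpn11. It measured 7.18, 8.94 and 8.39 in HoxA9AA replicates 1, 2 and 3, against 9.05, 9.25 and 9.0 in HoxA9wt replicates 1, 2 and 3. All 3 HoxA9AA mice lay below all 3 HoxA9wt mice, but replicate 2 did so by only 0.06, and the HoxA9AA mice spanned 1.76 against 0.25 for the HoxA9wt mice. The difference was -0.93 ± 0.42 (SE; limma, adjusted p = 0.731), with a 95% interval of -1.94 to 0.08. The size rested largely on single mice, as the difference was -0.44 without HoxA9AA replicate 1 (limma, adjusted p = 0.697) and -1.31 without HoxA9AA replicate 2 (adjusted p = 0.186).

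Cd33 gave its name to the CD33-related Siglecs, and the mouse protein, known from myeloid cells, lacks the typical inhibitory motif of the human one. It measured 10.42, 11.07 and 10.85 in HoxA9AA replicates 1, 2 and 3, and 11.43, 11.26 and 11.29 in HoxA9wt replicates 1, 2 and 3. The HoxA9AA values were the 3 lowest, in the same order of mice as for Siglece, and the groups were 0.19 apart. The HoxA9AA mean was 10.78 ± 0.33 and the HoxA9wt mean 11.33 ± 0.09 (SD, n = 3 each). The difference was -0.55 ± 0.17 (SE), or 0.685-fold, with a 95% interval of -0.96 to -0.13 before adjustment for the number of genes (limma, adjusted p = 0.731).

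Siglecf is best known from eosinophils and alveolar macrophages of the mouse, where it carries an inhibitory signal. It measured 8.85, 8.10 and 8.95 in the HoxA9AA mice and 8.41, 7.82 and 7.66 in the HoxA9wt mice. HoxA9AA replicates 1 and 3 were the highest of all, while HoxA9AA replicate 2 lay below HoxA9wt replicate 1, so the groups overlapped. The difference was 0.67 ± 0.29 (SE; limma, adjusted p = 0.731), with a 95% interval of -0.02 to 1.36. Among HoxA9wt mice its SD of 0.40 was larger than that of 96.5% of genes. Other eosinophil transcripts were near background in every mouse: 6 of 7 measured markers had means at or under 6.57, among them Epx (eosinophil peroxidase), which spanned 5.26 to 5.95 in HoxA9AA/Meis1 and 5.57 to 5.81 in HoxA9wt/Meis1, and Il5ra and Ccr3. Ear6, Epx, Alox15 and Prg3, the markers with the smallest p, differed by -0.18, -0.16, -0.07 and 0.06. Prg2, the granule major basic protein, lay above it at 7.06 to 7.17 in HoxA9AA/Meis1 and 6.61 to 7.65 in HoxA9wt/Meis1.

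Siglecg encodes an inhibitor of B cell receptor signalling, known above all from B-1 cells, that also binds the sialylated protein Cd24a. It measured 7.88, 7.77 and 8.25 in the HoxA9AA mice and 7.17, 7.56 and 7.38 in the HoxA9wt mice. Every HoxA9AA value lay above every HoxA9wt value, with 0.21 between the nearest mice, and this was the member with the smallest p. The HoxA9AA mean was 7.97 ± 0.25 and the HoxA9wt mean 7.37 ± 0.20 (SD, n = 3 each). The difference was 0.60 ± 0.16 (SE), or 1.51-fold, with a 95% interval of 0.21 to 0.99 before adjustment for the number of genes (limma, adjusted p = 0.731).

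Cd22, the other B cell Siglec and an inhibitory partner of the B cell receptor, was not above background, with 6.52, 6.52 and 6.26 in the HoxA9AA mice and 6.14, 6.27 and 6.34 in the HoxA9wt mice. HoxA9AA replicate 3 lay below 2 of the HoxA9wt mice. The difference of 0.18 ± 0.11 (SE; limma, adjusted p = 0.794) had a 95% interval of -0.08 to 0.45. Of 13 measured B cell markers, 12 had a higher mean in HoxA9AA/Meis1 (52.7% of all genes did), with a median difference of 0.24, and 1 was higher at an unadjusted p under 0.05 (4.15% of all genes). That was Vpreb3, a partner of the precursor B cell receptor, at 7.60, 7.16 and 7.20 in HoxA9AA/Meis1 against 6.67, 6.78 and 6.74 in HoxA9wt/Meis1. Blnk, Cd37 and Cd79a differed by 0.29, 0.34 and 0.24. Of the 13, 7 were at or under background, among them Cd79a and Ms4a1, and 6 lay above it, among them Cd79b and Ighm with means over the 6 arrays of 8.15 and 7.35. The mean of the B cell list was 0.13, 0.21 and 0.27 above the HoxA9wt mean in HoxA9AA replicates 1, 2 and 3, against 0.08, -0.06 and -0.01 in the HoxA9wt mice, and its part in the Siglecg difference was not tested.

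Siglech, which marks plasmacytoid dendritic cells and signals through the adaptor Tyrobp, hardly varied, with 6.88, 6.95 and 6.87 in the HoxA9AA mice and 7.04, 6.88 and 6.97 in the HoxA9wt mice. All 6 values lay within 0.17, a little above background, and the groups overlapped. The difference was -0.06 ± 0.09 (SE; limma, adjusted p = 0.932), with a 95% interval of -0.27 to 0.14. Of 11 measured markers of these dendritic cells, 6 had higher and 4 lower means. Tcf4, a transcription factor they need, measured 9.39, 9.52 and 9.63 in HoxA9AA/Meis1 against 9.37, 8.94 and 9.08 in HoxA9wt/Meis1, and Ptprs, Tlr9 and Ly6d differed by 0.40, 0.25 and -0.19. Ccr9, Spib and Pacsin1 were at or under background.

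Siglec1, or sialoadhesin, is a long receptor of tissue macrophages that binds sialylated cells without an inhibitory motif of its own. It measured 6.94, 6.66 and 6.74 in the HoxA9AA mice and 6.93, 6.81 and 6.89 in the HoxA9wt mice. The mean over the 6 arrays, 6.83, was only a little above background. The highest and the lowest value both came from HoxA9AA mice, so the groups overlapped. The difference was -0.10 ± 0.10 (SE; limma, adjusted p = 0.906), with a 95% interval of -0.34 to 0.15. Siglec1 lies on chromosome 2. Its 40 nearest genes at or above the median of all values, from Sirpa to Plcb1, stood, by their median, at -0.27 against the HoxA9wt mean in HoxA9AA replicate 1 and at 0.09 in replicate 3. Siglec1 itself was 0.06 above its HoxA9wt mean in replicate 1. The other 6 genes lie on chromosome 7, where the corresponding medians were between 0.02 and 0.14 in HoxA9AA replicate 1 and between 0.04 and 0.09 in replicate 3. Macrophage markers went both ways, with 5 of 12 higher and a median difference of -0.10. Of the 12, 0 reached an unadjusted p under 0.05, against 6.74% of all genes (0 adjusted, limma). Vcam1 measured 11.35, 9.12 and 9.25 in the HoxA9AA mice, against 8.85, 8.48 and 8.56 in the HoxA9wt mice, and Hmox1, Adgre1 and Mrc1 differed by -0.67, -0.58 and -1.02.

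**Figure D2:**
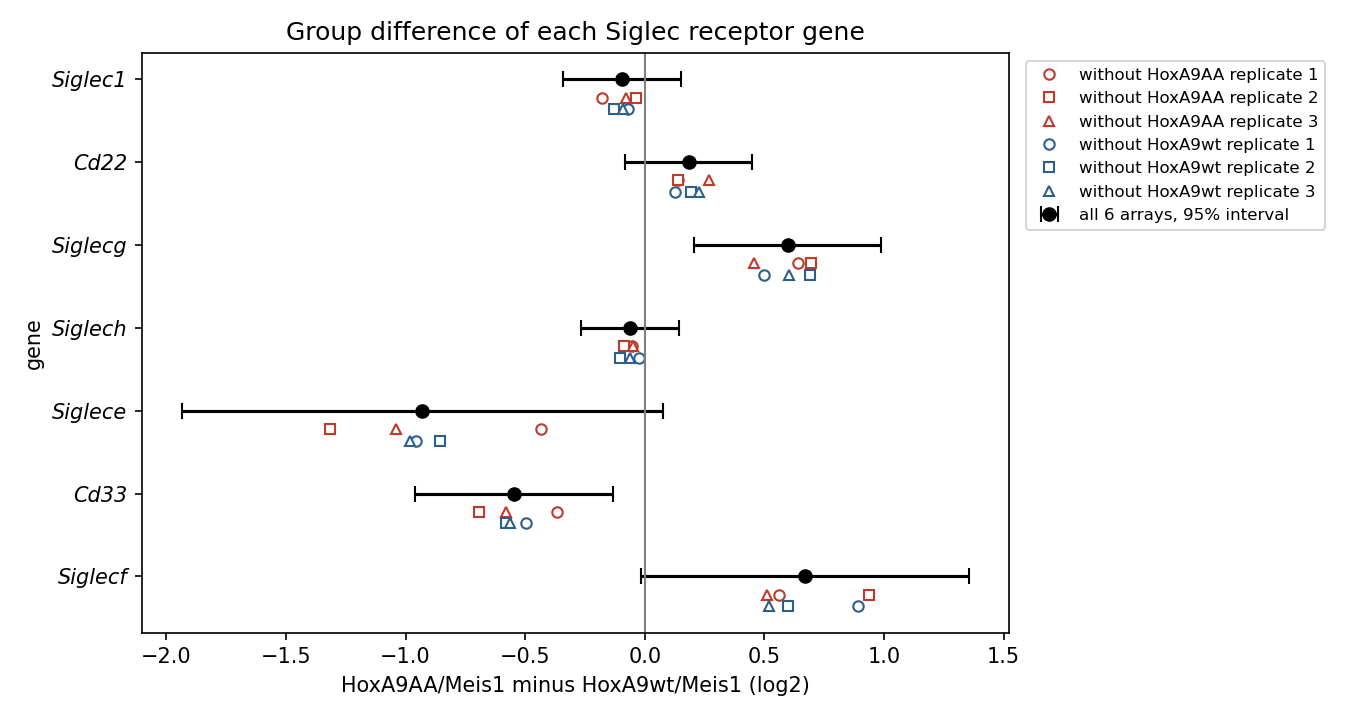
Difference of each Siglec receptor gene (horizontal axis, HoxA9AA/Meis1 minus HoxA9wt/Meis1, log2) with all 6 arrays (black point, bars the 95% interval from limma, not adjusted for the number of genes) and with each array left out in turn (open symbols). No gene changes sign when an array is left out, and Siglece shifts most, between -1.31 and -0.44.

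The mean of the monocyte marker list was, like Siglece and Cd33, lowest in HoxA9AA replicates 1 and 3. All 10 measured monocyte markers had a lower mean in HoxA9AA/Meis1, 5 of them at an unadjusted p under 0.05, where 2.59% of all genes were lower at that level, and none passed the adjusted test. The list mean relative to HoxA9wt was -1.69, -0.03 and -1.65 in HoxA9AA replicates 1, 2 and 3, against 0.09, -0.23 and 0.14 in the HoxA9wt mice. Ctss, a lysosomal protease, measured 10.62, 12.24 and 11.35 in HoxA9AA/Meis1 against 12.52, 12.32 and 12.41 in HoxA9wt/Meis1. Clec4a3, a C-type lectin of monocytes, measured 6.69, 10.97 and 7.20 in HoxA9AA/Meis1, and 11.09, 10.73 and 11.03 in HoxA9wt/Meis1. Klf4 and Lgals3 differed by -0.43 and -0.93. Neutrophil markers had a higher mean for 10 of 12 (52.7% of all genes did), with a median difference of 0.99. Their list mean was 0.97, 1.31 and -0.38 in HoxA9AA replicates 1, 2 and 3. In HoxA9wt replicates 1, 2 and 3 it was 0.56, 1.04 and -1.59, so HoxA9wt replicate 3 lay far below the other HoxA9wt mice. Among the neutrophil markers, Csf3r and Mmp9 differed by 0.74 and 0.84, Ly6g by 1.57 and the collagenase gene Mmp8 by -3.54. Myeloid precursor markers were higher for 9 of 10, with 0.65, 0.05 and 0.53 in the HoxA9AA mice and 0.21, -0.13 and -0.09 in the HoxA9wt mice. The receptor gene Kit, Myb, Prtn3 and Cd34 differed by 1.44, 0.49, 0.52 and 1.08. The part of these cell type markers in the Siglec differences was not tested.

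**Figure D3:**
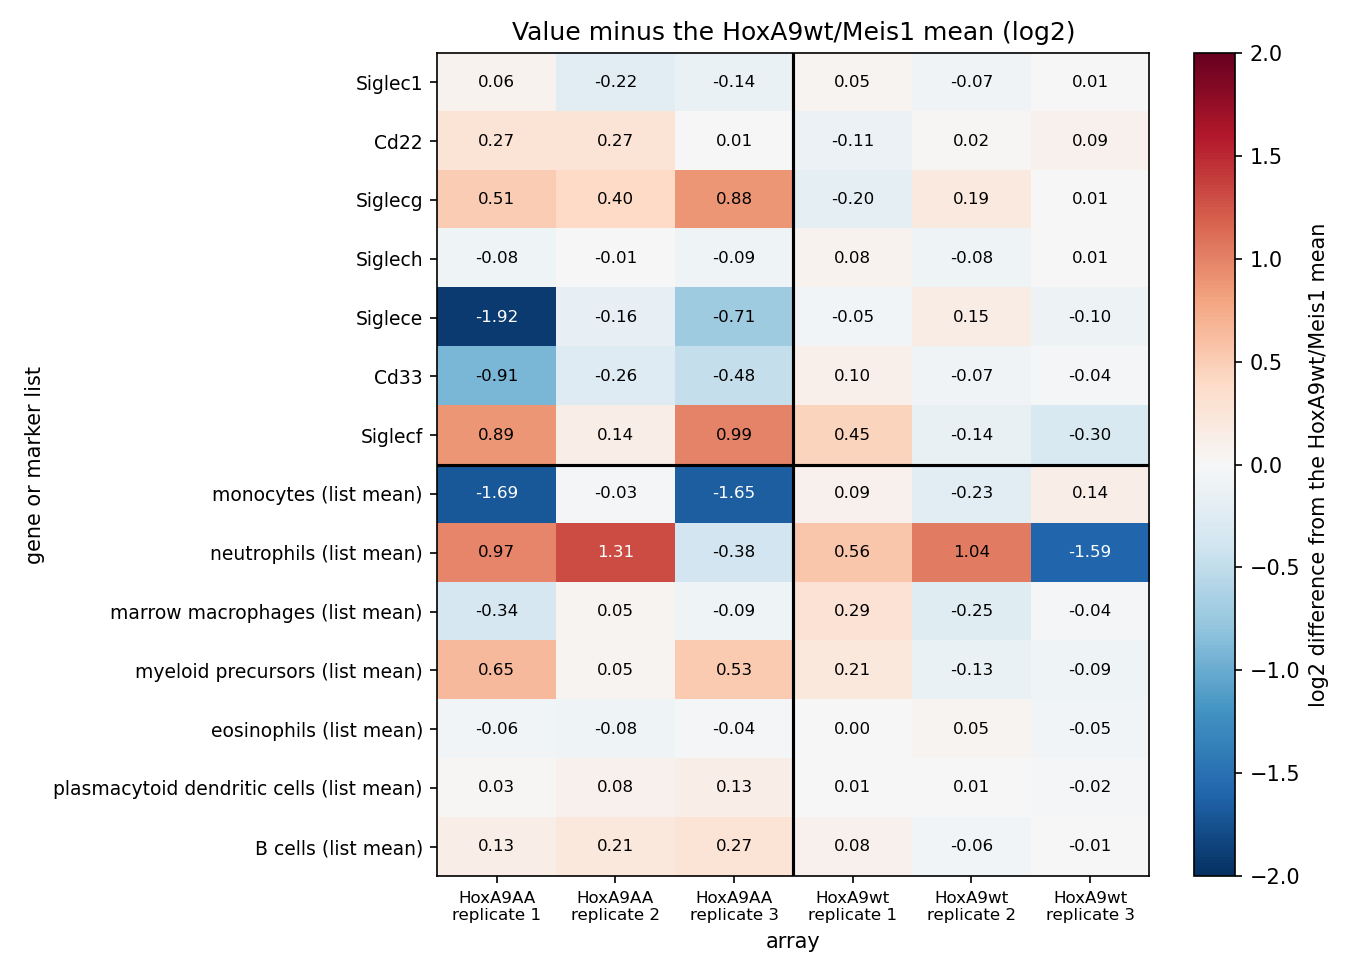
Value of each Siglec receptor gene, and mean of each cell type marker list, minus the HoxA9wt/Meis1 mean (log2; colour and printed number) on the 3 HoxA9AA/Meis1 and 3 HoxA9wt/Meis1 arrays. HoxA9AA replicate 1 is low for Siglece (-1.92) and for the monocyte list (-1.69), and HoxA9AA replicate 2 lies near the HoxA9wt mean for both (-0.16 and -0.03).

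For the 4 members whose values spanned at least 1 over the 6 arrays, the genes with the most similar pattern were taken by Pearson's r, as a description over 6 arrays that share the group difference. For Siglece these were Ap4e1 (r = 0.994), Atp6v1b2 (0.992) and Atg3 (0.991), and for Cd33 they were Glud1 (0.997), Clcc1 (0.996) and Pdcd10 (0.993). For Siglecf these were Atp2a3 (0.986), Smim3 (0.985) and Slc7a8 (0.985). For Siglecg they were Pcbd2 (0.992), the DNA polymerase alpha subunit gene Pola2 (0.984) and the kinetochore gene Spc24 (0.981). Between members the highest r was that of Siglece with Cd33, at 0.95, and the lowest that of Siglecg with Siglech, at -0.81. With only 6 arrays and all variable genes searched, values of this size arise readily.

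Genes that act with Siglecs were present and gave 0 calls. Of 12 measured signalling partners all lay above background, 4 had higher and 7 lower means, and the median difference was -0.04. Ptprc, the sialylated phosphatase CD45, measured 11.14, 11.88 and 11.37 in the HoxA9AA mice and 11.99, 11.85 and 11.79 in the HoxA9wt mice, a difference of -0.41. Tyrobp, the adaptor of activating Siglecs, measured 11.53, 12.14 and 12.12 in the HoxA9AA mice against 12.28, 12.05 and 12.10 in the HoxA9wt mice, with HoxA9AA replicate 1 the lowest. The adaptor Hcst differed by 0.26 and the kinase Syk by 0.09.

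Enzymes that make, attach and remove sialic acid also went both ways. Of 8 genes of sialic acid synthesis and transport 3 had higher and 5 lower means. Of the 8, 0 reached an unadjusted p under 0.05, against 6.74% of all genes (0 adjusted, limma). The members with the smallest p were Slc35a1, the Golgi transporter of activated sialic acid (0.46), Cmas (-0.50), Gne (0.34) and Npl (-0.21). Of 20 sialyltransferases 9 had higher and 11 lower means, and 10 of the 20 lay above background. St6galnac6 and St3gal3 differed by 0.31 and 0.22 and were 2 of the 20 at an unadjusted p under 0.05 and higher, against 4.15% of all genes. St3gal3 measured 8.08, 8.0 and 8.01 in the HoxA9AA mice and 7.78, 7.81 and 7.84 in the HoxA9wt mice, so the groups stood apart with little spread in either. St8sia1, the 1 of the 20 lower at an unadjusted p under 0.05 (2.59% of all genes), and St3gal6 differed by -0.31 and -0.24, at levels at or under background. Of 5 sialidase and esterase genes 4 had higher means, and the sialate esterase gene Siae (0.33) and the sialidase genes Neu3 (0.21), Neu1 (0.09) and Neu2 (0.05) had the smallest p.

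Among sialylated proteins that Siglecs can bind, Spn, the mucin CD43, measured 9.70, 9.19 and 9.72 in the HoxA9AA mice and 9.16, 8.92 and 8.93 in the HoxA9wt mice. Its groups stood apart by a narrow margin (9.19 against 9.16), with a difference of 0.53 (limma, adjusted p = 0.731). Vcan, a proteoglycan of monocytes, measured 8.09, 11.65 and 8.47 in the HoxA9AA mice, against 11.77, 12.10 and 11.84 in the HoxA9wt mice. Cd52 and Cd44 differed by -0.46 and -0.59. Of the 7 genes of this list 3 had higher and 4 lower means, 1 higher and 2 lower at an unadjusted p under 0.05 (4.15% and 2.59% of all genes), and none passed the adjusted test.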

How the data were processed

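The deposited log2 values were made by the authors with the R package oligo and RMA (background correction, quantile normalization, probe set summary), per the submitters' processing notes (no versions or genome build stated there). The log2 scale was taken from their range. Of 35556 probe sets, 21789 had 1 gene symbol in the platform annotation, and the brightest per gene left 19938 genes. Cross-hybridisation between related Siglec transcripts was not checked. The test was that of limma (version 3.58.1, R 4.3.3; lmFit and eBayes, two-sided, group as the only term). Its p-values were adjusted by Benjamini-Hochberg over the 19938 genes, with 0.05 as the threshold, and the procedure was checked on simulated data. Arrays give no counts, and 3 mice per group limit the precision. The members and gene lists were chosen with earlier results of these data known. Named genes were the members, the 3 most similar genes (range at least 1, above background) and the 4 members of each list with the smallest p, and defining markers at or under background (such as Ccr3, Il5ra, Ms4a1, Ccr9, Spib and Pacsin1); Prg2, Cd79b and Ighm were named after their values were seen. Lyn, Ly6c2, Ear1, Ear2, Klk1 and Runx2 had no probe set with 1 symbol. Alternatives covered the replicate block, single arrays left out, normalization, centring, filters, probe set means, moderation and array weights. Motifs were searched on both strands in RefSeq windows without their last 50 bases. Figures used matplotlib 3.10.9.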

Additional observations from a re-analysis of the deposited data

How the results depend on the processing

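The 7 Siglec genes kept the direction of their difference in all 96 refits that could be made. None passed, with adjusted p between 0.143 and 0.998 (limma). In part of these refits the direction could not change, because the replicate block, filters, probe set means and moderation leave each member's difference as it is. Only leaving out arrays, normalization, centring and array weights could have turned a direction. Cd22 has no value under the 2 filters on dim genes, which drop it. Leaving out single arrays gave -1.31 to -0.44 for Siglece, -0.69 to -0.37 for Cd33, 0.51 to 0.94 for Siglecf, 0.46 to 0.69 for Siglecg, 0.13 to 0.27 for Cd22, -0.18 to -0.04 for Siglec1 and -0.10 to -0.03 for Siglech. The count of genes called was 0 to 48 when single arrays were left out: 48 without HoxA9AA replicate 2, 1 without HoxA9wt replicate 3 and 0 without each of the others. In the added alternative, chosen after seeing the data, 3 to 4 of the 7 members had groups that did not overlap, where smaller groups give 16.9% to 28.3% of all genes. Same-numbered mice did not deviate together (r = -0.208, -0.103 and -0.013 across genes), and unlike-numbered mice gave -0.16 to 0.239. Deviations within a group of 3 depend on one another, so these values cannot decide whether the numbers mark a pairing. The replicate number as a block gave 0 calls, left the differences as they were (Siglece -0.93, Cd33 -0.55) and changed no adjusted call, while 4 of the 7 members had an unadjusted p under 0.05 (5.6% of all genes), against 2 without the block (6.74%). That member count was also added after seeing the data. It was 2 to 4 when single arrays were left out, where 3.05% to 14.1% of all genes reached that level. The count of 4 came without HoxA9AA replicate 2, where the share was 14.1%. In the other settings the member count was 2 or 3, against 5.91% to 8.38% of all genes. The remaining settings also called 0 genes. Of genes at an unadjusted p under 0.05, 61.6% were higher in HoxA9AA/Meis1. Over the alternatives this share ran from 55.2% (without HoxA9wt replicate 2) to 72.4% (after median centring). Brightness limits Cd22, which was not above background, and also Siglec1 and Siglech, which lay only a little above it.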

Other observations

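The array also measures the 2 mouse Siglec genes outside the set described above, named here after their values were seen. Mag, the myelin-associated glycoprotein of glia, measured 6.84, 6.48 and 6.88 in the HoxA9AA mice and 6.65, 6.74 and 6.52 in the HoxA9wt mice, close to background. Siglec15, known from osteoclasts and their precursors, measured 7.58, 7.32 and 7.31 in the HoxA9AA mice and 7.39, 7.46 and 7.41 in the HoxA9wt mice. Their differences of 0.10 and -0.02 did not pass the test (limma, adjusted p = 0.936 and 0.993), and the groups overlapped for both.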
